A study of Mus musculus with 10 samples.

Results

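The genes described here are 33 genes of cholesterol and fatty acid synthesis, 23 sterol genes and 10 fatty acid genes, out of 16292 genes listed for ameloblasts and 16638 listed for the stratum intermedium of the mouse enamel organ. They were taken by gene symbol from a list of pathway genes, and all 33 were found in both tables. The list was drawn up because Hmgcs1 was lower in knockout stratum intermedium, so the members were chosen by the knockout against wild type values of that layer, which are given as a description without a test. The ameloblast values of the same contrast were not part of that rule. The members were still chosen with earlier results of these data known, so the ameloblast values do not test an independently chosen set.

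The study compared claudin-10 knockout (KO) with wild-type (WT) mice. Claudin-10 is a tight junction protein that forms paracellular ion channels. Ameloblasts, which secrete and mature enamel, and the stratum intermedium, a sheet of cells on their basal side, were laser-captured from frozen sections of hemi-mandibles, and each layer had 3 KO and 2 WT libraries of polyA RNA. The libraries carry 5 prefixes that recur in both layers, KO1, KO3 and KO9 for KO and WT10 and WT5 for WT, and values are listed in that order throughout. Each prefix was taken as 1 mouse. The labels do not say that the libraries came from separate mice, so the p-values reflect the spread among libraries and part of it may be technical. The age and strain of the mice, the deleted part of Cldn10 and whether the deletion was limited to some cells were not stated in the labels.

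Cholesterol is built from acetyl-CoA through mevalonate, isoprenoid units, squalene and lanosterol, and fatty acids are built from the same acetyl-CoA by carboxylation, chain assembly, elongation and desaturation. When sterol is scarce in the endoplasmic reticulum, SCAP carries SREBP proteins to the Golgi, where they are cut and released to turn on genes of both routes, while the INSIG proteins hold SCAP back when sterol is plentiful. SREBP2, made from Srebf2, acts mainly on sterol genes, and SREBP1, made from Srebf1, includes a form that acts mainly on fatty acid genes.

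Sequences are shown for 4 members that the results return to, Hmgcs1 as the gene behind the list, Mvd and Acly as the members whose KO and WT libraries did not overlap in opposite directions in the layers, and Nsdhl as the member with the largest KO minus WT difference in ameloblasts. Each is the 250 bases before an annotated start, 5′ to 3′ on the gene's strand, from RefSeq on GRCm38.p6. Capitals mark the letters TCACNCCAC, a form of the sterol regulatory element that SREBP proteins bind, and CCAAT, the box bound by NF-Y, each on either strand.
Hmgcs1, chr13:119690101-119690350, plus strand: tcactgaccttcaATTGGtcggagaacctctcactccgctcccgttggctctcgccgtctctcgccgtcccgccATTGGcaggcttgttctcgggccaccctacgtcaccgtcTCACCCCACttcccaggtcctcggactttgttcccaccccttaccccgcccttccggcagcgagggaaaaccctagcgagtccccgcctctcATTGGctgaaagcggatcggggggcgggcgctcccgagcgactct
Mvd, chr8:122443423-122443672, minus strand: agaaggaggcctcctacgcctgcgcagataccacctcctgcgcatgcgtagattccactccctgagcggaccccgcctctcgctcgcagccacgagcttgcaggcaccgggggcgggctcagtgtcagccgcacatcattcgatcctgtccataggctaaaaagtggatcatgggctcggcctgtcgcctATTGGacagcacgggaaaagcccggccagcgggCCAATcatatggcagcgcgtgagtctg
Nsdhl, chrX:72918271-72918520, plus strand: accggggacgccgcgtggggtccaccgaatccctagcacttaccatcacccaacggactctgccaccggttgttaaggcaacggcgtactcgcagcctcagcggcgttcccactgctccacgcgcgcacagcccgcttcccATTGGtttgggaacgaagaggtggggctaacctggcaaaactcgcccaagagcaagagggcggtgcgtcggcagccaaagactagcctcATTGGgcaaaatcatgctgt
Acly, chr11:100528001-100528250, minus strand: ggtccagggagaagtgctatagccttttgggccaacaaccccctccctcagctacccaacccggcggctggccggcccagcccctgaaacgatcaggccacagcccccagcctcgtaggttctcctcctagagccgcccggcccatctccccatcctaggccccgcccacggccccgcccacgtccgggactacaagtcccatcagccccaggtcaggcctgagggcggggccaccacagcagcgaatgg

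Of the 33 members, 27 had a promoter in that set, 19 sterol genes and 8 fatty acid genes, and the members without one were Fdps, Fdft1, Sqle, Stard4, Scd1 and Scd2. TCACNCCAC was present in 1 of the 19 sterol promoters, that of Hmgcs1, where it begins at position -137 relative to the start, and in 0 of the 8 fatty acid promoters. Among all 27025 genes with a promoter in the set, 1.22% held it. The CCAAT box was present in 17 of 19 sterol promoters (89.5%) and in 5 of 8 fatty acid promoters (62.5%), against 37.5% of all genes. GGGCGG, the box bound by SP1, was present in 18 of 19 sterol promoters (94.7%) and in 4 of 8 fatty acid promoters (50%), against 35.4% of all genes. A gene was counted when any of its annotated starts held the letters on either strand, and matches of different motifs overlapped each other in 1 member. The Acly promoter above holds neither TCACNCCAC nor CCAAT. A match is a run of letters and was not tested as a binding site. Only exact letters were searched, so an element that differs by 1 letter counts as absent. For 24 of the 27 members the bases after a start lay in the start of an annotated transcript.

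The deposited values are normalized counts per gene with no read counts, so the depth behind each value is unknown. They summed to between 21006977 and 26856177 per library. The number of genes listed at 0 was uneven. It was 224, 41 and 420 in the KO ameloblast libraries, against 706 and 33 in the WT libraries. In the stratum intermedium it was 633, 109 and 210, against 854 and 36. Cldn10 itself was lower in every KO than in every WT library of each layer, at 149 to 408 in KO ameloblasts, against 600.1 to 752 in WT ameloblasts, and at 387 to 1003 in KO stratum intermedium, against 2365 to 7257 in WT stratum intermedium. The KO1 and KO3 libraries carried Xist, the transcript of the inactive X chromosome of females, at 5791 to 9555, and had Ddx3y of the Y chromosome listed at 0, while KO9, WT10 and WT5 had Ddx3y at 1980 or more. Sex and genotype therefore cannot be told apart for KO1 and KO3. The library names also hold an unexplained group number, 1 for KO3 and WT5, 2 for KO9 and WT10 and 3 for KO1.

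The captures matched their labels in part. Summed, the ameloblast markers made up 2.25% to 9.19% of the values in KO ameloblasts and 2.68% to 4.79% in WT ameloblasts. In the stratum intermedium they made up 0.136% to 0.809% in KO and 0.517% to 0.957% in WT. Amelx was the most abundant of them in every library. Amelx, Ambn, Enam, Mmp20, Sp6 and Dlx3 were higher in ameloblasts in every prefix. Amtn, Odam, Klk4 and Wdr72 were higher in ameloblasts in some prefixes and lower in others. Summed, the 8 markers of the stratum intermedium were about as abundant in ameloblast captures as in captures of that layer itself. They made up 0.437% to 0.505% in KO and 0.214% to 0.633% in WT ameloblasts. In the stratum intermedium they made up 0.270% to 0.624% in KO and 0.225% to 0.650% in WT. Single markers went both ways. Alpl was higher in the stratum intermedium in every prefix, at 16866 to 31622 normalized counts, against 6714 to 15829 in ameloblasts. Notch1, Dsc3, Hes1 and Krt17 were higher there in most prefixes. Krt14, Krt5 and Jag2 were higher in ameloblasts in every prefix. Bone and dentin matrix markers made up 3.59% to 5.45% of KO ameloblast libraries and 4.21% to 6.56% of WT ameloblast libraries. In the stratum intermedium they made up 3.95% to 4.53% of KO libraries, 2.57% of WT10 and 7.41% of WT5. Summed, markers of lipid-rich cell types were low, though single ones were not. Of 8 adipocyte markers 2 were listed in each layer, with Adipoq, Plin1 and Cidec among those not listed. They made up at most 0.0139% of any ameloblast library, in WT5, and at most 0.00789% of any stratum intermedium library, in KO3. Of the 2, Fabp4 had 397 to 3115 normalized counts in ameloblasts and 505 to 1719 in the stratum intermedium, and Plin4 had 57.1 or less. Of 7 sebocyte markers 4 were listed, at most 0.00349% of any library. Of 8 myelinating Schwann cell markers 7 were listed in ameloblasts and 8 in the stratum intermedium, and they made up at most 0.0251% of any library. Pmp22 was the highest of them, at 1094 to 3157 normalized counts in ameloblasts and 1855 to 4703 in the stratum intermedium. The part of such cells in the members' values was not tested.

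Most sterol genes lay above WT in the KO1 and KO3 ameloblast libraries but not in KO9, and no single gene passed the test. The KO minus WT log2 difference was above 0 for 21 of 23 sterol genes and 8 of 10 fatty acid genes, beside 53.0% of all genes tested above 0 and 47.0% below. The median difference was 0.34 for the sterol genes, with members between -0.26 and 0.94, and 0.31 for the fatty acid genes, with members between -0.19 and 0.65, beside 0.04 for all 16212 genes. The sterol genes below 0 were Insig1 and Stard4, and the fatty acid genes below 0 were Acaca and Fasn. With limma and Benjamini-Hochberg adjustment over all genes, 0 of the 33 members and 0% of all genes passed an adjusted p of 0.05, and every member's adjusted p was 0.989 or more. At an unadjusted limma p under 0.05, 3 members were higher in KO, namely Nsdhl, Cyp51 and Acat2, and 0 were lower, beside 2.25% of all genes higher and 0.82% lower. That count was 0 with library group as a block, and 1 with sex as a covariate, where the log2 differences were 0.51 for Nsdhl, 0.28 for Cyp51 and 0.31 for Acat2.

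In 9 members every KO ameloblast library lay above both WT libraries, and in 0 members every KO library lay below. The 6 sterol genes were Acat2, Mvd, Cyp51, Tm7sf2, Nsdhl and Ebp, which is 26.1% of the 23, and the 3 fatty acid genes were Srebf1, Acly and Elovl6, which is 30.0% of the 10. Among all genes tested, 9.09% were apart with KO higher and 9.26% with KO lower.

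**Figure D1:**
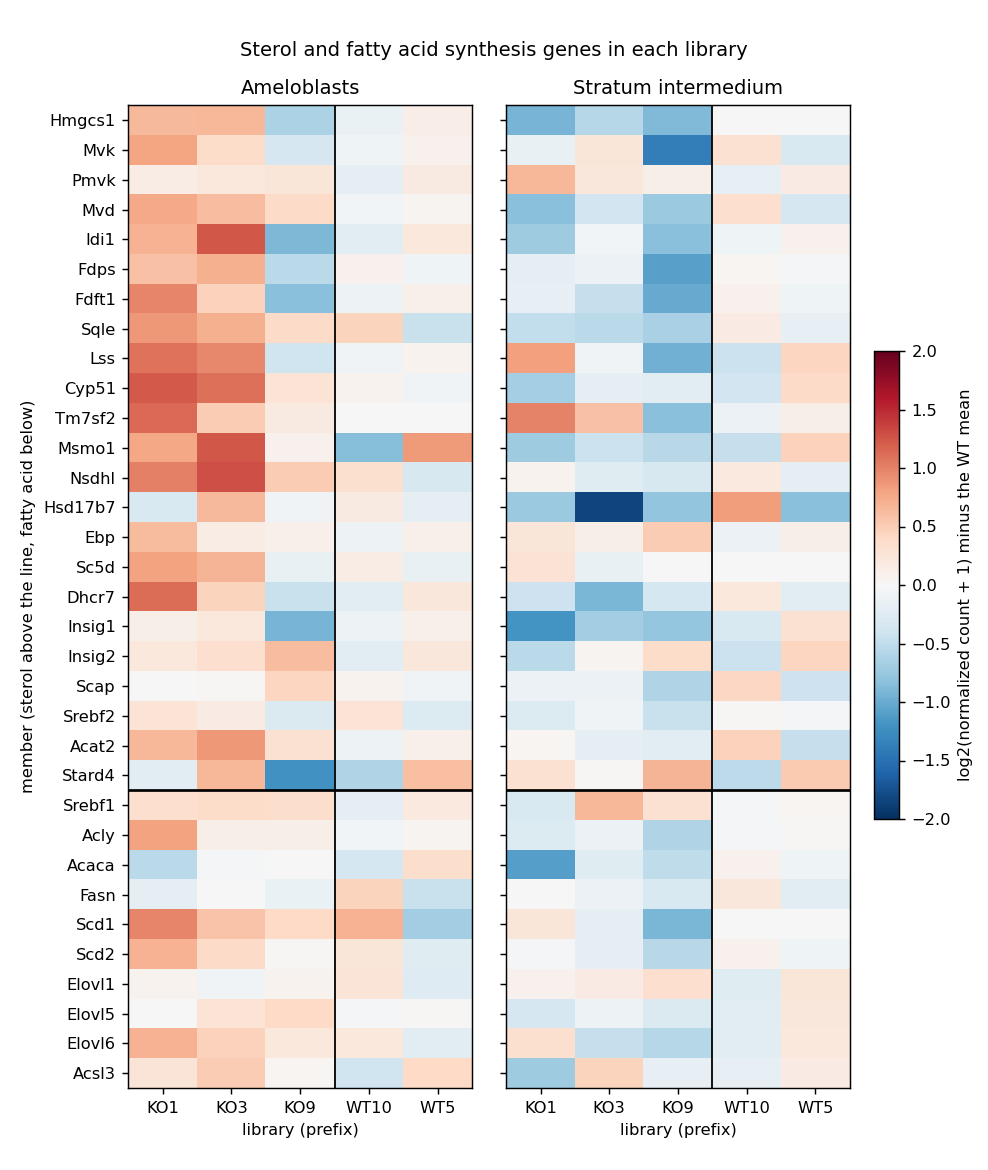
Heat map of all 33 members (rows, sterol genes above the line and fatty acid genes below it) in the 5 libraries of each layer (columns, KO left of WT), coloured by log2(normalized count + 1) minus the mean of the 2 WT libraries of that layer. In ameloblasts the KO1 and KO3 columns are red for most sterol genes and the KO9 column is mixed, and in the stratum intermedium the 3 KO columns are mostly blue.

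The group's difference in ameloblasts was carried by the KO1 and KO3 libraries. Relative to the WT mean, the median of the sterol genes was 0.70 in KO1, 0.65 in KO3 and -0.07 in KO9, and the median of the fatty acid genes was 0.30, 0.32 and 0.09. KO9 was the lowest KO library for 19 of 23 sterol genes and 4 of 10 fatty acid genes, beside 37.7% of all genes, and lay below both WT libraries for 11 of 23 sterol genes and 0 of 10 fatty acid genes, beside 29.3%. KO1 and KO3 both lay above both WT libraries for 16 of 23 sterol genes and 4 of 10 fatty acid genes, beside 15.9% of all genes. KO1 and KO3 are also the libraries that carry Xist. With sex as a covariate, which leaves KO9 as the only KO library compared with WT, the sterol median was -0.07 and 11 of 23 sterol genes lay above 0. Without KO9, 9 members passed an unadjusted limma p of 0.05, and without KO1 or without KO3 0 did. The share of all genes at that p in these fits is not given, so nothing about the members is read from these counts. Without KO9 the fit sets KO1 and KO3, which carry Xist, against WT libraries with Ddx3y, so sex and genotype cannot be told apart.

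Within the library groups the pairs differed. In group 1 the sterol median was 0.51 for KO3 minus WT5 in ameloblasts, and in group 2 it was -0.22 for KO9 minus WT10, while group 3 holds KO1 alone. The fatty acid medians of the same pairs were 0.22 and 0.09. Other markers moved with the libraries too. Osteoclast markers made up 0.102%, 0.270% and 0.452% of the KO ameloblast libraries, against 0.346% and 0.756% of the WT libraries, and red blood cell markers 0.0814%, 0.144% and 0.0930%, against 0.244% and 1.28%. Ameloblast markers made up 9.19%, 3.86% and 2.25% of the KO libraries, against 4.79% and 2.68% of the WT libraries. Skeletal muscle markers made up 0.247%, 0.177% and 0.0578% of the KO libraries, against 0.0166% and 0.316% of the WT libraries. The part of these cells in the group's difference was not tested. In captured tissue, fewer cells of a type and less RNA per cell cannot be told apart.

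In KO stratum intermedium the same genes lay mostly below WT. The log2 difference was below 0 for 18 of 23 sterol genes and 8 of 10 fatty acid genes, beside 48.1% of all 16543 genes tested below 0 and 51.9% above. The median was -0.37 for the sterol genes, with members between -1.12 and 0.34, and -0.24 for the fatty acid genes, with members between -0.62 and 0.23, beside 0.02 for all genes. All KO libraries lay below both WT libraries for 8 sterol genes, namely Hmgcs1, Mvd, Fdps, Fdft1, Sqle, Dhcr7, Insig1 and Srebf2, and for the fatty acid genes Acaca and Acly, beside 7.44% of all genes. Ebp alone had all KO libraries above, beside 7.76% of all genes. This contrast chose the list, so nothing is read from these counts.

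The library medians of the sterol genes in the stratum intermedium were -0.20 in KO1, -0.15 in KO3 and -0.61 in KO9, and those of the fatty acid genes were -0.15, -0.12 and -0.40. All 3 KO medians were thus below 0, that of KO9 the most. KO9 was the lowest KO library for 12 of 23 sterol genes and 5 of 10 fatty acid genes, beside 32.1% of all genes, and lay below both WT libraries for 16 of 23 and 8 of 10, beside 27.8%. KO1 and KO3 both lay above both WT libraries for 3 of 23 sterol genes and 0 of 10 fatty acid genes, beside 13.7%. Within library groups the sterol median was -0.15 for KO3 minus WT5 and -0.56 for KO9 minus WT10. Osteoclast markers made up 0.237% to 0.595% of the KO libraries of this layer and 0.187% to 0.919% of its WT libraries. Skeletal muscle markers made up 0.487%, 0.628% and 0.169% of its KO libraries, against 0.0974% and 0.297% of its WT libraries. The part of these cells in the differences of this layer was not tested.

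**Figure D2:**
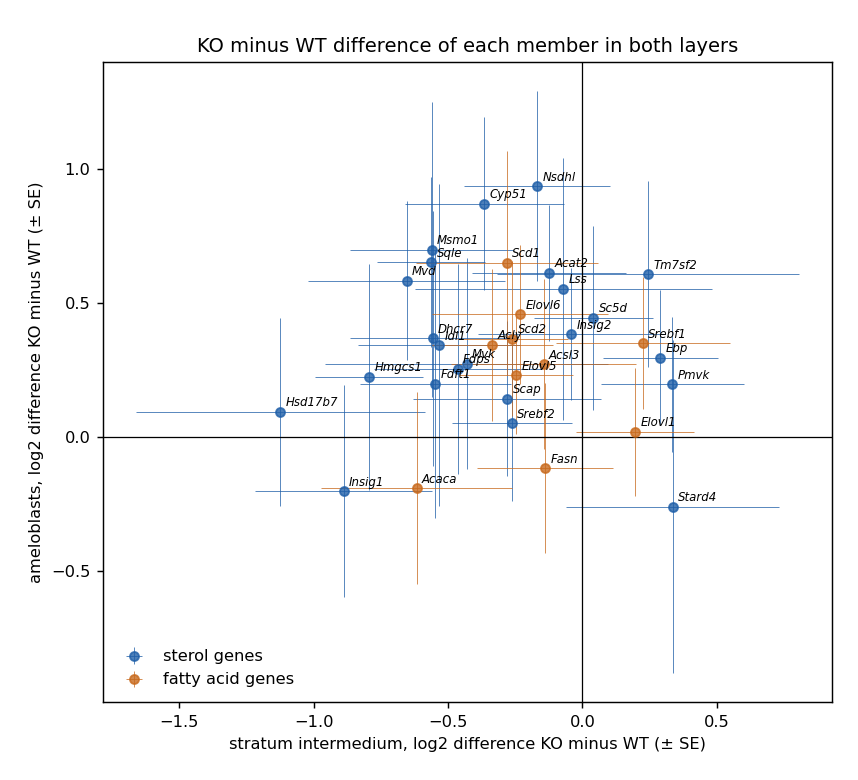
KO minus WT log2 difference of each member in the stratum intermedium (horizontal axis) and in ameloblasts (vertical axis), with bars of 1 standard error from limma, sterol genes in blue and fatty acid genes in orange. Of the 33 members, 23 lie in the upper left field, above 0 in ameloblasts and below 0 in the stratum intermedium, and many error bars cross an axis.

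Set side by side, 17 of 23 sterol genes and 6 of 10 fatty acid genes were above 0 in ameloblasts and below 0 in the stratum intermedium, beside 25.3% of the 15567 genes tested in both layers. Most members lay above 0 in ameloblasts and most lay below 0 in the stratum intermedium, so these joint counts follow largely from the single-layer counts. No link between the layers is read from them. The ameloblast difference minus the stratum intermedium difference had a median of 0.72 for the sterol genes, with members between -0.59 for Stard4 and 1.26 for Msmo1, and of 0.45 for the fatty acid genes, beside 0.01 for all genes. It holds the contrast that chose the list and is a description. Mvd and Acly were the members whose libraries did not overlap in opposite directions. That is 1 of 23 sterol genes (4.35%) and 1 of 10 fatty acid genes (10%), beside 0.7% of all genes. This count too holds the contrast that chose the list.

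The first steps, which make mevalonate and turn it into isoprenoid units, were led in level by Fdps and Acat2. Levels per kilobase of exon, as means over the 5 libraries in ameloblasts and in the stratum intermedium, were 729.6 and 1013 for Acat2, which joins acetyl-CoA units in the cytosol, and 488 and 489.9 for Hmgcs1, which adds a further acetyl-CoA. They were 176 and 132 for Mvk, 475 and 519.6 for Pmvk and 213 and 174 for Mvd, the kinases and the decarboxylase that act on mevalonate. Idi1, which interconverts the isoprenoid units, had 299 and 249, and Fdps, which joins them into farnesyl diphosphate, had 969 and 639.5. Levels in separate layers come from separately normalized tables and were not tested against each other.

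In ameloblasts Hmgcs1 had 3039, 3052 and 1246 normalized counts in the KO libraries, against 1768 and 2114 in the WT libraries. KO1 and KO3 were above both WT libraries and KO9 was below both (log2 difference 0.23, SE 0.42, unadjusted p = 0.609 in limma). Its stratum intermedium values were 1584, 2025 and 1629 normalized counts in the KO libraries, against 3019 and 2996 in the WT libraries, so every KO library was below both WT libraries and the WT values were close to each other (log2 difference -0.79, SE 0.20). Of the exon bases of Hmgcs1 12.1% overlap Gm48342 on the opposite strand, and the labels do not say whether counting used the strand.

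Mvd, whose enzyme makes isopentenyl diphosphate, had 516, 464 and 394 normalized counts in KO ameloblasts, against 293 and 314 in WT ameloblasts. The groups did not overlap, with all KO libraries higher (log2 difference 0.58, SE 0.30, unadjusted p = 0.0913 in limma). The stratum intermedium gave Mvd values of 228, 310.1 and 242 normalized counts in the KO libraries, against 512 and 322 in the WT libraries, with all KO libraries lower (log2 difference -0.65, SE 0.37). That difference was -0.32 without WT10 and -0.99 without WT5. Acat2 in ameloblasts had 2216, 2540.3 and 1727 normalized counts in the KO libraries, against 1304 and 1493 in the WT libraries, and again the groups did not overlap (log2 difference 0.61, SE 0.25, unadjusted p = 0.0458 in limma). Its libraries overlapped in the stratum intermedium (log2 difference -0.12, SE 0.29).

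Idi1, Mvk and Fdps spread widely among the KO libraries. Idi1 in ameloblasts had 1299.5, 1889 and 427 normalized counts in the KO libraries, against 689 and 931 in the WT libraries, so the KO libraries lay on both sides of WT (log2 difference 0.34, SE 0.60). Mvk had 702, 523 and 318 normalized counts in KO ameloblasts, against 381 and 429 in WT ameloblasts (log2 difference 0.27, SE 0.39). Fdps had 5259.9, 5720.0 and 2407 normalized counts in KO ameloblasts, against 3697 and 3301 in WT ameloblasts (log2 difference 0.25, SE 0.39), and KO1 and KO3 were above WT while KO9 was below it. Log2 differences in the stratum intermedium were -0.53 for Idi1, -0.43 for Mvk and -0.46 for Fdps. Pmvk lay above 0 in both layers, at log2 difference 0.20, SE 0.25 in ameloblasts and log2 difference 0.34, SE 0.27 in the stratum intermedium, with overlapping libraries. Of the exon bases of Fdps 26.7% overlap Gm43738 on the same strand, and reads of both cannot be separated here.

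**Figure D3:**
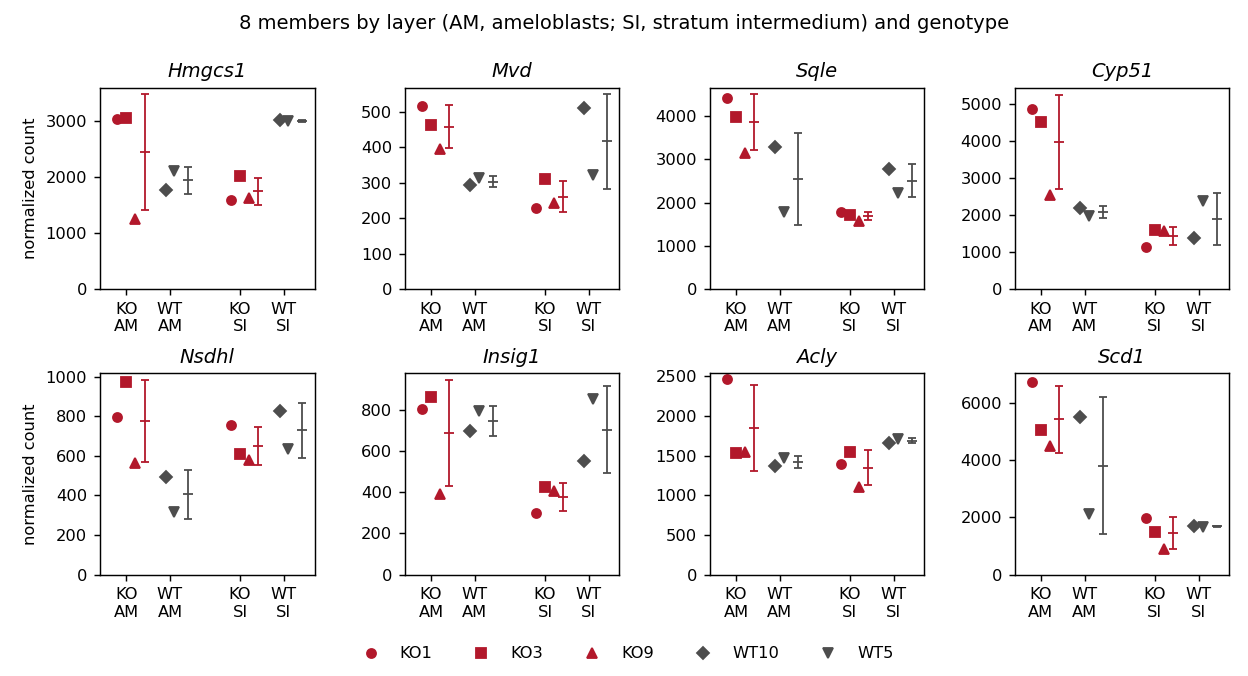
Normalized counts (vertical axes, from 0) of 8 members in KO and WT libraries of ameloblasts (AM) and the stratum intermedium (SI), with 1 symbol per library and the mean with SD beside them (n = 3 KO and 2 WT). For Hmgcs1 the KO1 and KO3 ameloblast libraries lie above WT and KO9 below, and all KO stratum intermedium libraries lie below WT.

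At the squalene steps Sqle lay above both WT libraries in 2 KO ameloblast libraries and below both in all KO stratum intermedium libraries. Per kilobase of exon in ameloblasts and in the stratum intermedium, Fdft1, which makes squalene, had 680.2 and 401, Sqle, which oxidizes it, had 600.1 and 363, and Lss, which closes the ring to lanosterol, had 43.6 and 40.2. Lss was the lowest sterol gene in both layers. Sqle had 4428, 3979.9 and 3154 normalized counts in KO ameloblasts, against 3289 and 1789 in WT ameloblasts. KO1 and KO3 were above both WT libraries, while KO9 lay between them (log2 difference 0.65, SE 0.32, unadjusted p = 0.0779 in limma). Stratum intermedium values of Sqle were 1774, 1707 and 1583 normalized counts in the KO libraries, against 2779.9 and 2230.2 in the WT libraries, and the groups did not overlap (log2 difference -0.56, SE 0.20). Fdft1 had 4779.8, 3347 and 1367 normalized counts in KO ameloblasts, against 2272 and 2610.3 in WT ameloblasts, with KO9 lowest of all (log2 difference 0.20, SE 0.50), and log2 difference -0.55, SE 0.28 in the stratum intermedium. Lss had 733, 673 and 260.3 normalized counts in KO ameloblasts, against 328 and 360.4 in WT ameloblasts (log2 difference 0.55, SE 0.49), and its difference in the stratum intermedium was near 0 (log2 difference -0.07, SE 0.55). Of the exon bases of Fdft1 18.3% overlap Ctsb on the opposite strand.

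The steps from lanosterol to cholesterol, which have more members than any other part of the sterol list, held 4 of the 6 sterol genes whose libraries were apart in ameloblasts. Cyp51, which removes the first methyl group of lanosterol, had 4889, 4514 and 2538 normalized counts in KO ameloblasts, against 2208 and 1982 in WT ameloblasts. All KO libraries were higher, and KO1 and KO3 the most (log2 difference 0.87, SE 0.32, unadjusted p = 0.0310 in limma). Nsdhl, a dehydrogenase that helps remove further methyl groups and that lies on the X chromosome, had 796, 971 and 562 normalized counts in the KO libraries, against 492 and 318 in the WT libraries. Again all KO libraries were higher (log2 difference 0.94, SE 0.35, unadjusted p = 0.0335 in limma). Tm7sf2, a sterol reductase, had 907, 593 and 472 normalized counts in the KO libraries, against 414 and 416 in the WT libraries, with KO1 the highest (log2 difference 0.61, SE 0.35, unadjusted p = 0.123 in limma). Ebp, a sterol isomerase that is also X-linked, had 2916, 2104 and 2034 normalized counts in the KO libraries, against 1753 and 2033 in the WT libraries, where the lowest KO value and the highest WT value nearly touched (log2 difference 0.30, SE 0.25). Cyp51, Nsdhl and Tm7sf2 overlapped between genotypes in the stratum intermedium, at log2 differences of -0.37, -0.17 and 0.24, and Ebp had all KO libraries higher there (0.29).

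The other genes of these steps overlapped between genotypes in ameloblasts. Msmo1, an oxidase that acts on the methyl groups, had 1507, 2096 and 939 normalized counts in the KO libraries, against 491 and 1595 in the WT libraries, and the WT libraries lay far apart (log2 difference 0.70, SE 0.55). Dhcr7, which catalyses the last step to cholesterol, had 948, 594 and 320.4 normalized counts in the KO libraries, against 374 and 512 in the WT libraries (log2 difference 0.37, SE 0.48), and its KO libraries were all lower in the stratum intermedium (log2 difference -0.56, SE 0.31). Sc5d, a desaturase, had log2 differences of 0.45 in ameloblasts and 0.04 in the stratum intermedium. Hsd17b7, a ketoreductase, had the lowest difference of all members in the stratum intermedium (log2 difference -1.12, SE 0.54). It had 1129, 526 and 1094 normalized counts in the KO libraries, against 3356 and 1062 in the WT libraries there, so WT10 alone was high and the groups overlapped.

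Per kilobase of exon in ameloblasts and in the stratum intermedium, Ebp had 939 and 799.6, Cyp51 731 and 367, Sc5d 271 and 291 and Nsdhl 220.0 and 239. Msmo1 had 216 and 238, Hsd17b7 157 and 281, Tm7sf2 127 and 70.5 and Dhcr7 94.5 and 102. Of the exon bases of Tm7sf2 12.1% overlap Vps51 on the same strand.

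Among the regulators Insig1 differed most, and in the stratum intermedium. Insig1 and Insig2 encode the proteins that retain SCAP, and in many tissues Insig1 is itself a target of SREBP. Insig1 had 807, 863 and 390.2 normalized counts in KO ameloblasts, against 696 and 797 in WT ameloblasts, where KO9 alone was low (log2 difference -0.20, SE 0.40, unadjusted p = 0.628 in limma). In the stratum intermedium it had 298, 424 and 404 normalized counts in the KO libraries, against 554 and 854 in the WT libraries, with every KO library below both WT libraries (log2 difference -0.89, SE 0.33). Insig2 had 3050.1, 3334 and 4049 normalized counts in KO ameloblasts, against 2274 and 3081 in WT ameloblasts (log2 difference 0.38, SE 0.25) and 1931, 2900.5 and 3604 normalized counts in KO stratum intermedium, against 2076 and 3776 in WT stratum intermedium (log2 difference -0.04, SE 0.35), and its groups overlapped in both layers. Per kilobase of exon Insig2 stood 2.91 to 9.24 times as high as Insig1 over the ameloblast libraries and 3.34 to 7.94 times over the stratum intermedium libraries, with the highest ratio of each layer in KO9.

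Of the SREBP factors, Srebf1 had its KO libraries above WT in ameloblasts and Srebf2 had them below WT in the stratum intermedium. Srebf2 had 1584, 1461 and 1067 normalized counts in KO ameloblasts, against 1570.0 and 1082 in WT ameloblasts and overlapped (log2 difference 0.05, SE 0.29, unadjusted p = 0.863 in limma), with a direction that turned under several alternatives. Its stratum intermedium values were 1039, 1195 and 922 normalized counts in the KO libraries, against 1275 and 1235 in the WT libraries, all KO libraries lower by a small margin (log2 difference -0.26, SE 0.22). Srebf1 had 1007, 1033 and 1022 normalized counts in KO ameloblasts, against 700.3 and 916 in WT ameloblasts, where the KO libraries lay close together above WT (log2 difference 0.35, SE 0.25, unadjusted p = 0.199 in limma). Srebf1 had 619, 1214 and 942 normalized counts in KO stratum intermedium, against 743 and 782 in WT stratum intermedium and overlapped (log2 difference 0.23, SE 0.32). Per kilobase of exon the ratio of Srebf2 to Srebf1 ran from 0.819 to 1.76 in ameloblasts and from 0.768 to 1.35 in the stratum intermedium, so neither gene was the higher in all libraries. These tables sum all transcripts of a gene, so the forms of SREBP1 are not separated.

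Scap, which encodes the escort of SREBP, had log2 differences of 0.14 in ameloblasts and -0.28 in the stratum intermedium and overlapped in both. Stard4, a carrier that moves sterol between membranes, had 301, 557 and 153 normalized counts in KO ameloblasts, against 232 and 537 in WT ameloblasts, the WT libraries lying apart by more than the genotypes (log2 difference -0.26, SE 0.62). Per kilobase of exon in ameloblasts and in the stratum intermedium, Insig2 had 909 and 823, Insig1 229.7 and 164, Srebf2 188 and 158 and Srebf1 166 and 153. Stard4 had 63.7 and 88.2 and Scap 68.9 and 73.3.

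At the first steps of fatty acid synthesis Acly and Acaca had all KO libraries below WT in the stratum intermedium. Acly, which makes cytosolic acetyl-CoA from citrate, had 2467, 1535 and 1542 normalized counts in KO ameloblasts, against 1366 and 1473 in WT ameloblasts. All KO libraries were higher, KO1 by far the most (log2 difference 0.34, SE 0.28, unadjusted p = 0.266 in limma). Without KO1 that difference was 0.12. Acly in the stratum intermedium had 1393, 1548 and 1109 normalized counts in the KO libraries, against 1665 and 1708 in the WT libraries, all KO libraries lower (log2 difference -0.33, SE 0.23). Acaca, which carboxylates acetyl-CoA, had 299.5, 429.8 and 432 normalized counts in KO ameloblasts, against 342 and 554 in WT ameloblasts and overlapped (log2 difference -0.19, SE 0.36). Acaca in the stratum intermedium had 232, 421 and 352 normalized counts in the KO libraries, against 531 and 469.8 in the WT libraries, all KO libraries lower (log2 difference -0.62, SE 0.36). Fasn, the synthase that assembles the chain, had 894, 1019 and 933 normalized counts in KO ameloblasts, against 1398 and 754 in WT ameloblasts, its KO libraries between the WT libraries (log2 difference -0.12, SE 0.32, unadjusted p = 0.726 in limma). Fasn in the stratum intermedium had 937, 857 and 755 normalized counts in the KO libraries, against 1086 and 800.1 in the WT libraries and overlapped (log2 difference -0.14, SE 0.25).

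Scd1 and Scd2 encode desaturases that put the first double bond into saturated chains, and Scd2 was the highest member per kilobase of exon in both layers. Scd1 had 6751, 5064 and 4512 normalized counts in KO ameloblasts, against 5522 and 2115 in WT ameloblasts, where WT5 alone was low (log2 difference 0.65, SE 0.42, unadjusted p = 0.164 in limma). Without WT5 the difference was -0.04. In the stratum intermedium Scd1 had 1999, 1490.5 and 899 normalized counts in the KO libraries, against 1694 and 1681 in the WT libraries, KO9 being lowest (log2 difference -0.28, SE 0.34). Scd2 had 19713, 15788 and 12353 normalized counts in KO ameloblasts, against 14393 and 10254 in WT ameloblasts (log2 difference 0.37, SE 0.29) and 9215, 8211 and 6402 normalized counts in KO stratum intermedium, against 9936 and 8915 in WT stratum intermedium (log2 difference -0.26, SE 0.21), and it overlapped between genotypes in both. The ratio of Scd2 to Scd1 per kilobase of exon was 2.33 to 4.34 over the ameloblast libraries and 4.13 to 6.37 over the stratum intermedium libraries. The genes are similar in sequence, and reads that fit both were not separable here.

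Elongases showed 1 member apart between genotypes. Elovl6, which lengthens the products of Fasn, had 2444, 2073 and 1746 normalized counts in KO ameloblasts, against 1737 and 1304 in WT ameloblasts, where KO9 and WT10 nearly touched (log2 difference 0.46, SE 0.26, unadjusted p = 0.119 in limma). It overlapped in the stratum intermedium (log2 difference -0.23, SE 0.33). Elovl1, which acts on long saturated chains, and Elovl5, which acts on polyunsaturated chains, had log2 differences of 0.02 and 0.23 in ameloblasts and 0.20 and -0.25 in the stratum intermedium. Acsl3, which activates fatty acids with CoA, had 0.27 and -0.14 in those layers. All 3 overlapped in both layers.

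Per kilobase of exon in ameloblasts and in the stratum intermedium, Scd2 had 2654 and 1562, Elovl1 1156 and 905, Scd1 979.7 and 317 and Elovl5 876 and 821. Acly had 318 and 281, Elovl6 289 and 170.3, Acsl3 253 and 327, Fasn 91.3 and 81.0 and Acaca 24.1 and 23.5. Acaca was the lowest member in both layers. Of the 10 highest members by this measure, 10 in ameloblasts and 9 in the stratum intermedium were the same when the longest transcript replaced the union of exons. In ameloblasts Scd2 stood above the highest library of its neighbour Elovl1 in all 5 libraries, and every other pair of neighbours in either layer overlapped in range.

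**Figure D4:**
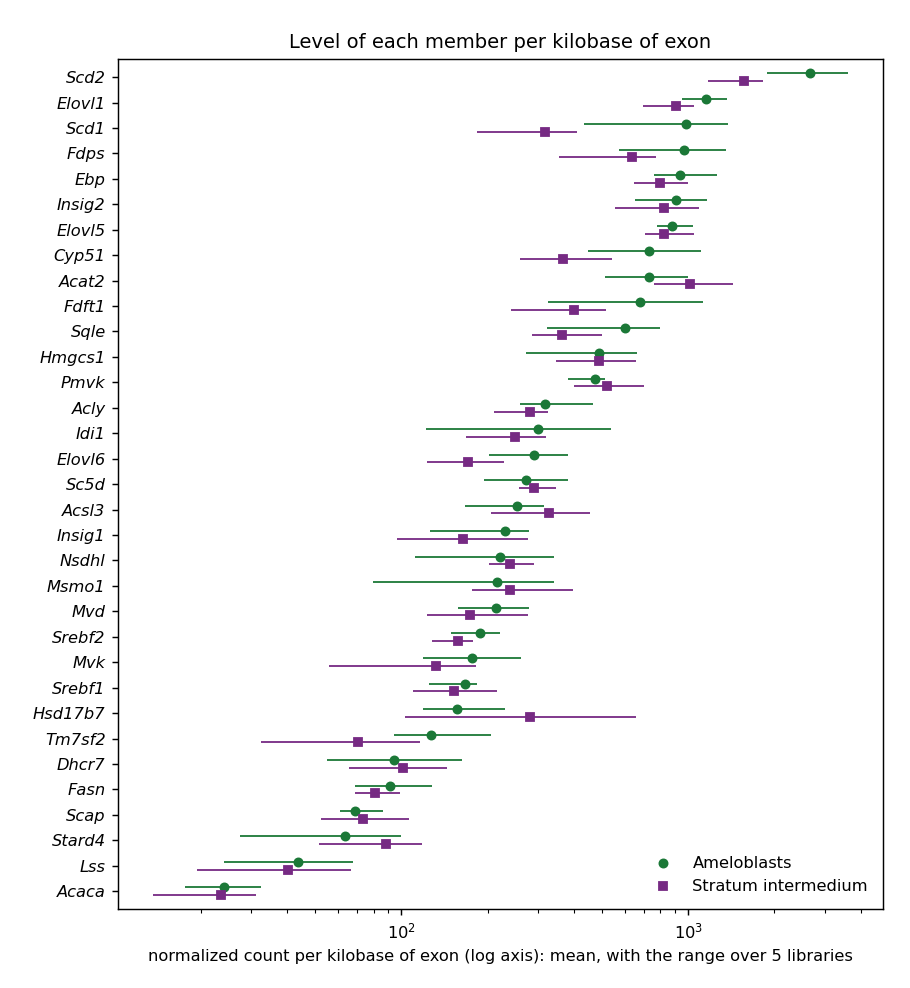
Normalized count per kilobase of exon (horizontal log axis) of all 33 members, as the mean (symbol) and the range (line) over the 5 libraries of ameloblasts in green and of the stratum intermedium in purple, ordered by the ameloblast mean. Scd2 is highest in both layers and Acaca lowest.

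The layers were compared within each prefix, as ameloblast minus stratum intermedium log2 values less the median over all shared genes, as a description because the tables were normalized separately. In all 5 prefixes 9 members were higher in ameloblasts, namely Fdps, Fdft1, Tm7sf2 and Insig1 among sterol genes (17.4%) and Fasn, Scd1, Scd2, Elovl1 and Elovl6 among fatty acid genes (50%), beside 11.1% of all genes. In 0 members were all 5 prefixes lower, beside 9.96% of all genes. The median gap was 0.28 for sterol genes and 0.31 for fatty acid genes, beside 0.00 for all genes. The sum of the ameloblast markers was higher in ameloblasts as well, as given above, and the part of capture make-up in these gaps was not tested.

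Scd1 had the largest gap of the members, at 1.90, 1.92 and 2.5 in the KO prefixes, against 1.81 and 0.50 in the WT prefixes. WT5 had a much smaller gap than the others (mean 1.73 ± 0.74 (SD, n = 5)). Elovl6 followed in the fatty acid group, at 0.88, 1.44 and 1.32 in the KO prefixes, against 0.90 and 0.11 in the WT prefixes, with WT5 again lowest. Scd2 had 1.24, 1.10 and 1.12 in the KO prefixes, against 0.64 and 0.38 in the WT prefixes, the KO prefixes all above the WT prefixes. Elovl1 had 0.59, 0.38 and 0.36 in the KO prefixes, against 1.08 and 0.12 in the WT prefixes, with WT10 highest.

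Among sterol genes Tm7sf2 had 0.98, 0.78 and 1.89 in the KO prefixes, against 0.91 and 0.76 in the WT prefixes, with KO9 highest (mean 1.06 ± 0.47 (SD, n = 5)). Fdft1 had 1.53, 1.33 and 0.59 in the KO prefixes, against 0.16 and 0.60 in the WT prefixes, and the genotypes overlapped narrowly. Fdps had 1.08, 1.13 and 0.87 in the KO prefixes, against 0.29 and 0.29 in the WT prefixes, the genotypes apart. Insig1 had 1.58, 1.18 and 0.12 in the KO prefixes, against 0.44 and 0.07 in the WT prefixes, KO1 and KO3 standing above the rest.

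The gap was larger in every KO prefix than in both WT prefixes for 8 sterol genes, namely Hmgcs1, Mvd, Fdps, Sqle, Cyp51, Msmo1, Nsdhl and Insig2, and for the fatty acid genes Acly, Scd1, Scd2 and Elovl5. It was smaller in every KO prefix for 0 members. Among all genes 11.5% had a larger and 10.8% a smaller KO gap. For Hmgcs1 the gap was 1.08, 0.75 and -0.21 in the KO prefixes, against -0.66 and -0.33 in the WT prefixes, so that 2 KO prefixes were above 0 and the other 3 prefixes below. For Mvd it was 1.32, 0.74 and 0.87 in the KO prefixes, against -0.69 and 0.14 in the WT prefixes. For Nsdhl it was 0.22, 0.83 and 0.13 in the KO prefixes, against -0.64 and -0.82 in the WT prefixes, all KO prefixes above 0 and both WT prefixes below. These gaps hold the contrast that chose the list.

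**Figure D5:**
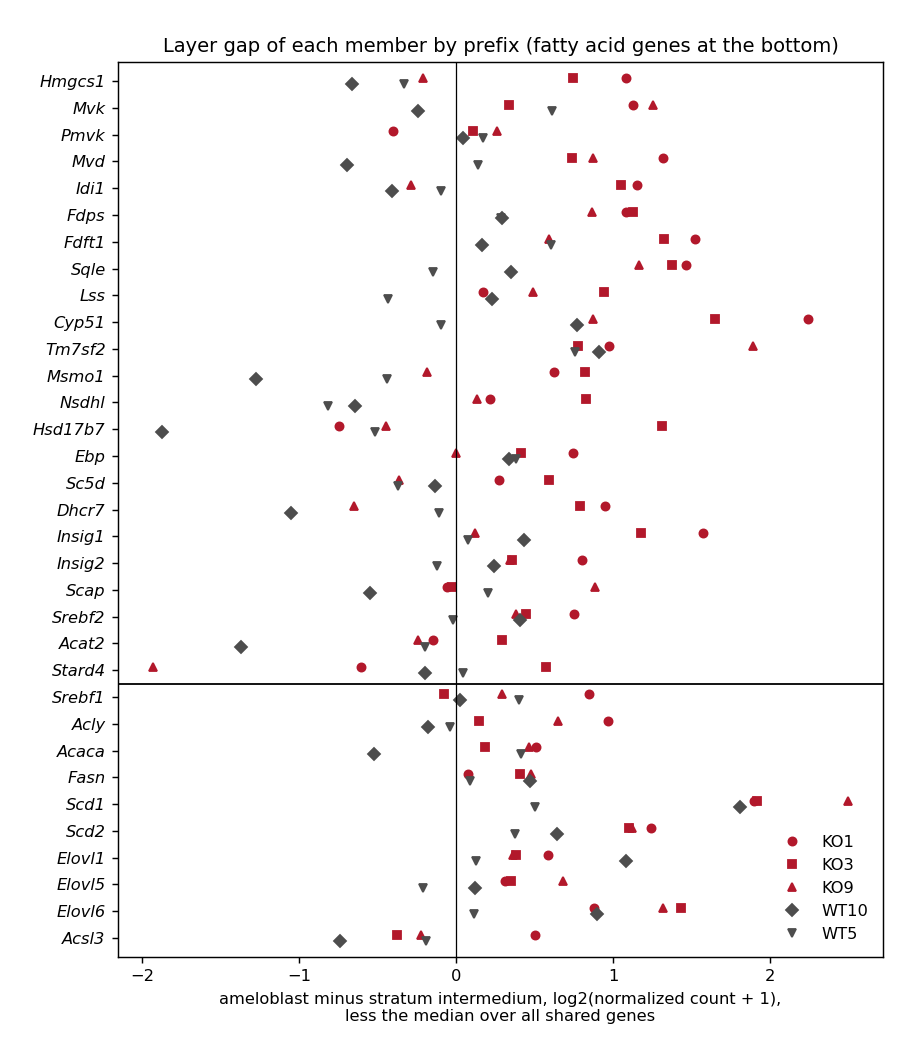
Ameloblast minus stratum intermedium log2(normalized count + 1), less the median over all shared genes (horizontal axis), for each member (rows) and prefix, KO prefixes in red and WT prefixes in grey. Scd1 lies to the right of 0 in all prefixes, and for Hmgcs1 the WT prefixes lie left of all KO prefixes.

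Other genes of the pathways, from lists of 19 sterol and 28 fatty acid genes that are not members, lay nearer to the whole table. In ameloblasts 11 of 19 measured sterol genes and 17 of 27 measured fatty acid genes were above 0, with medians of 0.13 and 0.12, and 0 of each passed an unadjusted limma p of 0.05. In the stratum intermedium 10 of 18 and 17 of 27 were below 0, with medians of -0.08 and -0.13. In that layer Mbtps2, the protease that makes the second cut in SREBP, had 486, 442 and 456 normalized counts in the KO libraries, against 536 and 713 in the WT libraries. All KO libraries were lower (log2 difference -0.42, SE 0.28).

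Elovl2 and Acacb were low and uneven in the stratum intermedium. Elovl2, an elongase of polyunsaturated chains, had 0, 12.5 and 21.8 normalized counts in the KO libraries, against 115 and 145 in the WT libraries. Acacb, the mitochondrial form of the carboxylase, had 261, 70.9 and 160.0 normalized counts in the KO libraries, against 1.46 and 45.1 in the WT libraries. The groups did not overlap in either gene, and values at or near 0 make a fold unsafe for both. Fads2, a desaturase of polyunsaturated chains named after its values were seen, had 1896, 1471 and 1815 normalized counts in KO ameloblasts, against 1285 and 1127 in WT ameloblasts and 1457, 1346 and 1384 normalized counts in KO stratum intermedium, against 1688 and 1517 in WT stratum intermedium, so that KO libraries were all higher in the first layer and all lower in the other.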

How the data were processed

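RNA was measured in 10 laser-captured libraries, 3 KO and 2 WT in each of 2 layers. The signal values are normalized counts per gene, deposited by the authors as 1 table per layer, named as a DESeq2 normalized matrix with outliers left out, without saying which. The submitters' processing notes name the GRCm38 build together with featureCounts, STAR 2.5.2b, DESeq, Picard 2.8.1 and FastQC, but no settings. Whole reads could not be recovered from the values, so no count test was made and depth is unknown. Every listed gene had at least 10 in at least 3 libraries of its table, so the KO libraries alone could list a gene and the WT libraries alone could not; all 33 members passed. The number of table columns left unused was 0.

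Columns were matched to samples by library name. Within each table, limma 3.58.1 under R 4.3.3, two-sided and with a mean-variance trend, was fitted on log2(normalized count + 1) to genes with a mean of at least 10, 16212 in ameloblasts and 16543 in the stratum intermedium, with Benjamini-Hochberg adjustment over all of them. Differences are KO minus WT with limma standard errors, on the log2(value + 1) scale, which understates changes of low genes. Layer gaps were taken within prefixes and centred on the median over 15567 shared genes. Limma was run on simulated data with independent noise and changes larger than that of any member. That run therefore does not measure how well differences of the members' size are found. Exon lengths and overlaps came from GENCODE M21 on GRCm38.

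The members and lists were chosen with earlier results of these data known. Values in every library were given for Hmgcs1, the Srebf, Insig and Scd pairs and Fasn for their role, for up to 4 members per group and contrast with the largest difference among those whose libraries did not overlap, and for other pathway genes by a like rule, of which 1 gene is not reported here; further members were described after their values were seen. Alternatives changed the pseudocount to 0.5 or 8, dropped the filter or raised it to 50, and used quantile normalization, rescaling to equal sums or by median ratios without the 20 most abundant genes, library weights (statmod 1.5.0), replicate number, library group or sex in the fit, and leaving out each library. Figures were drawn with matplotlib 3.10.9.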

Additional observations from a re-analysis of the deposited data

Results flagged for a closer look

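Mvd and Acly were higher in every KO than in every WT library of ameloblasts and lower in every KO than in every WT library of the stratum intermedium. The ameloblast log2 difference minus the stratum intermedium log2 difference was 1.24 for Mvd and 0.68 for Acly. The difference between the layers was not tested, because the stratum intermedium contrast chose the list. The pattern was seen in 1 of 23 sterol genes (4.35%) and 1 of 10 fatty acid genes (10%), beside 0.7% of all genes measured in both layers. In ameloblasts alone, 26.1% of sterol and 30% of fatty acid genes were apart with KO higher. In the stratum intermedium alone, 34.8% and 20% were apart with KO lower. With so many members apart in each layer, no link between the layers is read from the joint pattern. In ameloblasts the Acly difference was 0.34 with all libraries and 0.12 without KO1.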

How the results depend on the processing

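The count of genes past an adjusted p of 0.05 in ameloblasts stayed at 0 under every alternative run. The 3 members at an unadjusted p under 0.05 became 0 with the replicate block, 0 with library group as a block and 1 with sex as a covariate, and ranged from 0 to 9 when each library was left out, with 9 without KO9. The replicate block rests on numbers that samples only share: same-numbered KO and WT libraries had deviations correlated at 0.0862 and -0.116 in ameloblasts and at -0.186 and -0.133 in the stratum intermedium. With sex as a covariate the ameloblast medians were -0.068 for sterol and 0.094 for fatty acid genes, and 11 sterol genes lay above 0. Leaving out each library gave ameloblast medians of 0.22 to 0.69 for sterol and 0.20 to 0.37 for fatty acid genes. In the stratum intermedium the medians were -0.17 and -0.089 with the replicate block and -0.61 and -0.40 with sex as a covariate, and ran from -0.45 to -0.17 and from -0.31 to -0.089 without single libraries. The fatty acid median of the ameloblast effect minus the stratum intermedium effect ran from 0.28 without WT5 to 0.55 without KO3. Counts by sign, tried without each library after seeing the data, ran from 18 to 23 sterol and 7 to 8 fatty acid genes above 0 in ameloblasts, and from 15 to 19 and 7 to 8 below 0 in the stratum intermedium.

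Uncalled ameloblast differences that turned were Insig1 (0.059 with library weights, -0.41 to 0.16 without single libraries), Srebf2 (-0.0041 with the replicate block, -0.063 with library group as a block, -0.29 with sex as a covariate, -0.22 to 0.32 without single libraries), Hmgcs1 (-0.63 with sex as a covariate), Fasn (-0.56 to 0.33) and Scd1 (-0.042 to 1.34), the last 2 without WT10 or WT5. The ameloblast sterol median also changed sign with sex as a covariate, as given above. In the stratum intermedium small differences changed sign for Insig2 (0.057 with library weights, 0.21 with library group as a block, 0.36 with sex as a covariate, 0.39 without WT5), Scd1 (0.032 with the replicate block) and Fasn (0.081 without WT10). With 3 KO and 2 WT libraries and no read counts, depth and small differences could not be judged.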
